A study of Mus musculus with 12 samples.

Results

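Mpo, Elane, Prtn3, Ctsg and Ms4a3 are transcribed together early in neutrophil development, and they were followed here across cultured mouse bone marrow cells carrying 1 of 4 retroviral constructs. They were chosen by symbol, with earlier results of these data known. Each of the 5 genes had exactly 1 probe set annotated to it alone, out of 19938 genes with such a probe set. The fusion constructs were CALM(400-648)+AF10 (677-758), a fusion of 2 fragments called here the minimal fusion, then the fusion CALM-AF10, and then CALM-AF10 ΔOM-LZ, which lacks what the labels call OM-LZ. The empty vector MIG was the control, and each construct had 3 arrays labelled as biological replicates. All cells came from adult C57/BL6/C3H mice that had received 5-fluorouracil 4 days earlier, a drug that enriches marrow for stem and progenitor cells. After 48 h of stimulation they were overlaid on irradiated (40 Gy) GFP+E86 virus-producing cells, cultured on, and sorted for GFP. Total RNA was taken 96 h after transduction. The labels do not say whether replicates came from separate mice, so p-values measure the spread between these arrays, which may be partly technical. Sorted cells were a mixture, and in such bulk samples fewer cells of a type and less RNA per cell cannot be told apart.

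Neutrophils fill their granules in waves. The first wave, the primary or azurophil granules, is loaded at the promyelocyte stage, and the messenger RNAs for its contents are switched on in granulocyte-monocyte progenitors and switched off again as the cells mature. Mpo encodes myeloperoxidase, which makes hypochlorous acid from hydrogen peroxide. Elane (neutrophil elastase), Prtn3 (proteinase 3) and Ctsg (cathepsin G) encode related serine proteases that are stored active in these granules. Ms4a3 encodes a membrane-spanning protein rather than a granule enzyme, and in the mouse its transcript marks granulocyte-monocyte progenitors. PU.1, MYB, RUNX1 and C/EBP factors are known activators of genes of this group.

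The 250 bases before each gene's start are shown because these 5 genes moved together between arrays, as described below. They are from RefSeq, mouse build GRCm38.p6, written 5′ to 3′ on the gene's own strand, and all 5 genes matched an entry. Capitals mark AGGAAGT, the core of sites read by PU.1 and other ETS factors, and CAACNG, a form of the MYB site, on either strand. The motifs were chosen after the sequences had been seen.
Elane, chr10:79886062-79886311, plus strand: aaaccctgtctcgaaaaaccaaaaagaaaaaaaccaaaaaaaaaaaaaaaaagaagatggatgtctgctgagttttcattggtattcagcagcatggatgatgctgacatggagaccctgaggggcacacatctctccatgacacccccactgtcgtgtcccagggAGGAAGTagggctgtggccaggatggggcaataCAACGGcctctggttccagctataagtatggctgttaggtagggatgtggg
Prtn3, chr10:79879417-79879666, plus strand: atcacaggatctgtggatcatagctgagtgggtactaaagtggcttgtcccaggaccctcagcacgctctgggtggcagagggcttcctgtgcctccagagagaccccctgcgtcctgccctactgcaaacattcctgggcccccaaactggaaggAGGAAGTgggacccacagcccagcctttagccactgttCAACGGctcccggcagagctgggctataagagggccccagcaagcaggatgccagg
Mpo, chr11:87793534-87793783, plus strand: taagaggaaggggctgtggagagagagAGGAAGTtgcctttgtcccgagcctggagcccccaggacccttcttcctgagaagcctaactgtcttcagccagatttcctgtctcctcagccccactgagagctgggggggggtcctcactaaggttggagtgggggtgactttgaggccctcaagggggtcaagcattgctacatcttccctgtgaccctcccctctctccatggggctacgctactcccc
Ctsg, chr14:56102575-56102824, minus strand: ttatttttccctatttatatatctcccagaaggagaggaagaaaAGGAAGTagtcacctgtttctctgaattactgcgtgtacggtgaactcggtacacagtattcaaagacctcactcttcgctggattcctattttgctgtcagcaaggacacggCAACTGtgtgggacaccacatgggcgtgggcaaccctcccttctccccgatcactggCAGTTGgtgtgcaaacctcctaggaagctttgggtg
Ms4a3, chr19:11640852-11641101, minus strand: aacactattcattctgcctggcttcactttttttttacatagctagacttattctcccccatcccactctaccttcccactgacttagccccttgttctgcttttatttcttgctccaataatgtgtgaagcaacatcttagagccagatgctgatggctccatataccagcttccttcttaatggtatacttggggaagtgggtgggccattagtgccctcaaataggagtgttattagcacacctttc

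AGGAAGT was present before 4 of the 5 genes, and 7.69% of 32851 mouse promoter windows of the same length held it on either strand. Its first base lay 84 bases before the start of Elane, 94 before Prtn3, 223 before Mpo and 206 before Ctsg. CAACNG was present before 3 of the 5 genes, against 29.3% of all windows. Elane and Prtn3, which lie next to each other on chromosome 10, shared a layout: CAACGG began 51 bases before the start of Elane and 56 before that of Prtn3, and TATAA 31 and 32 bases before them. TATAA was in 22.8% of all windows. Ctsg held CAACNG at 2 places, and its TATAA match lay 236 bases before the start on the opposite strand. The capitalised motifs did not overlap each other, and Ms4a3 held neither. ATTGC, part of a C/EBP site, was before Mpo and Elane (23.1% of all windows), and TGTGGT, the core read by RUNX factors, was before Ctsg (14% of all windows). A match describes letters and not a bound site.

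The arrays were of even overall brightness, with array medians from 6.58 to 6.69 on the log2 scale. Hoxa9, a homeobox gene reported here as a check of the construct labels, averaged 10.05 ± 0.10 in minimal fusion cells, 8.97 ± 0.05 in CALM-AF10 cells, 8.61 ± 0.04 in ΔOM-LZ cells and 8.67 ± 0.20 in MIG cells (log2 intensity, SD, n = 3 each). It rose in the minimal fusion against MIG by 1.39 on the log2 scale (limma, adjusted p = 0.00132). In CALM-AF10 and in ΔOM-LZ against MIG no probe set with a gene symbol had a limma adjusted p under 0.05. Hoxa9 therefore checked the label of the minimal fusion only. With probe sets lacking a symbol included, the lowest limma adjusted p was 3.1e-07 in CALM-AF10 and 6.0e-07 in ΔOM-LZ against MIG. Among probe sets with a symbol it was 0.0037 and 0.0051 without MIG replicate 2. Mllt10, the mouse AF10 gene, averaged 10.36 in minimal fusion, 10.32 in CALM-AF10, 10.36 in ΔOM-LZ and 10.48 in MIG cells. Its probe set was called in no pair of constructs (the lowest unadjusted limma p was 0.206), so it gave no check of the labels.

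All 5 genes were bright. Mpo lay above 97.7% of all probe sets on its dimmest array, and Ms4a3 lay above 80% on its dimmest array. Levels of different probe sets are not compared with each other here, because probe sets differ in how brightly they report.

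Ms4a3, the granulocyte-monocyte progenitor transcript, swung widely between arrays of every construct. Its log2 values were 10.54, 12.29 and 11.88 in minimal fusion replicates 1, 2 and 3, then 9.69, 12.35 and 10.80 in CALM-AF10, then 9.19, 12.34 and 11.67 in ΔOM-LZ. MIG cells had 11.87, 10.97 and 10.24. Values of the 4 constructs overlapped, with the highest reading in the replicate 2 arrays of the fusions and the lowest in ΔOM-LZ replicate 1. From lowest to highest array Ms4a3 differed 8.96-fold.

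Elane, the elastase gene, had log2 values of 11.89, 13.16 and 12.92 in minimal fusion cells and 10.06, 13.16 and 11.62 in CALM-AF10 cells. ΔOM-LZ cells had 9.94, 13.20 and 12.85, and MIG cells 13.01, 12.40 and 12.36. CALM-AF10 and ΔOM-LZ replicate 1 stood far below all other arrays for this gene. The fold between highest and lowest array was 9.57 over all 12, 2.42 within the minimal fusion, 8.61 within CALM-AF10, 9.57 within ΔOM-LZ and 1.56 within MIG. Whether this spread differed between constructs was not tested.

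Prtn3, the proteinase 3 gene beside Elane, had 11.28, 12.88 and 12.54 in minimal fusion cells, 10.81, 12.89 and 11.34 in CALM-AF10 cells, 10.17, 13.03 and 12.26 in ΔOM-LZ cells, and 12.49, 11.52 and 10.97 in MIG cells. Its arrays fell in nearly the order seen for Ms4a3, and the constructs overlapped. The highest array stood 7.25-fold above the lowest.

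Mpo and Ctsg moved the same way over a narrower span. Mpo had 12.69, 13.30 and 13.18 in minimal fusion cells, 12.58, 13.37 and 13.09 in CALM-AF10 cells, 12.10, 13.38 and 13.30 in ΔOM-LZ cells, and 13.22, 12.98 and 12.78 in MIG cells. Ctsg had 12.61, 12.72 and 12.60 in minimal fusion cells, 12.14, 12.76 and 12.50 in CALM-AF10 cells, 11.93, 12.68 and 12.60 in ΔOM-LZ cells, and 12.68, 12.59 and 12.26 in MIG cells. ΔOM-LZ replicate 1 was the lowest array for both and CALM-AF10 replicate 1 the second lowest. From lowest to highest array Mpo differed 2.42-fold and Ctsg 1.77-fold. Both probe sets lay near the top of the array's scale, and whether that narrowed their range was not tested.

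**Figure D1:**
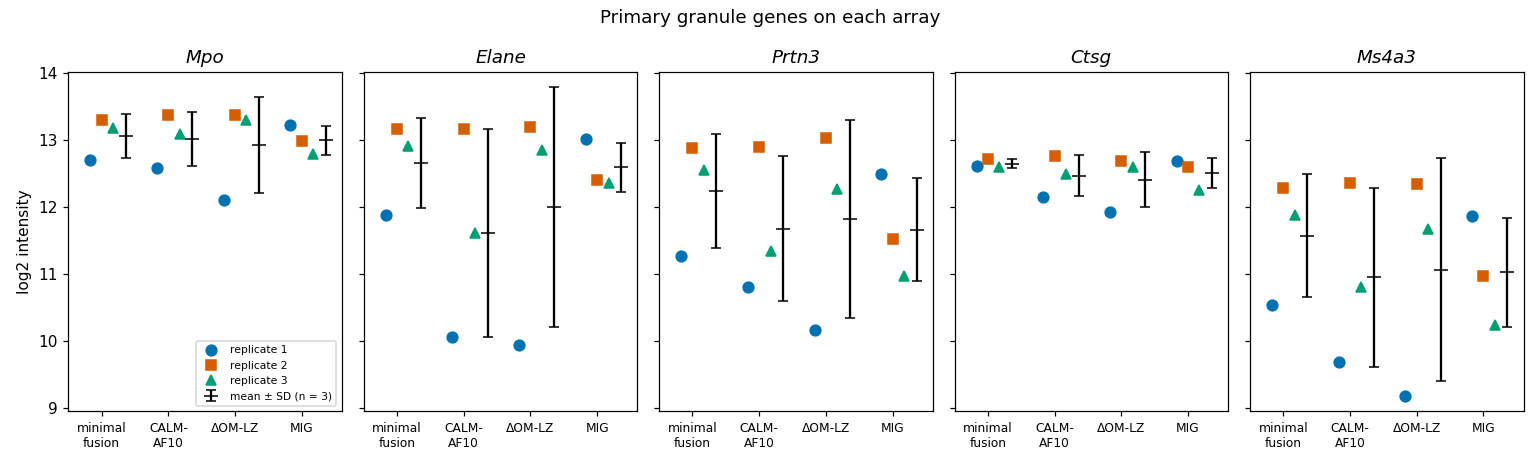
Log2 intensity (vertical axis) of each of the 5 genes on each of the 12 arrays, by construct; symbols mark replicate numbers 1 to 3, and black bars the mean ± SD of 3 arrays. In the fusion groups replicate 2 is the highest array and, except for Ctsg in the minimal fusion, replicate 1 the lowest, while in MIG replicate 1 is the highest.

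The first question was whether any construct changed these genes against the empty vector. None of the 5 passed in any of the 3 comparisons with MIG (limma fitted over all 12 arrays and 23410 probe sets, Benjamini-Hochberg adjusted p under 0.05), and none passed at an unadjusted p under 0.05 or with limma's trend and robust variance. In the minimal fusion against MIG, 0.0342% of probe sets passed the adjusted threshold and 7.61% the unadjusted one. All 5 genes had positive estimates there. Prtn3 stood 0.57 higher on the log2 scale (SE 0.76, 95% interval −1.11 to 2.25, adjusted p = 0.897), Ms4a3 0.55 (interval −1.36 to 2.45) and Ctsg 0.13 (interval −0.33 to 0.59). Elane differed by 0.07 (SE 0.88) and Mpo by 0.06 (interval −0.66 to 0.78). Minimal fusion and MIG values overlapped for every one of the 5, whereas 6.08% of probe sets had groups that did not overlap with the minimal fusion higher and 6% with it lower. Without MIG replicate 3 the estimate was 0.22 for Prtn3, 0.15 for Ms4a3 and 0.0052 for Ctsg, and without minimal fusion replicate 1 it was 1.05 for Prtn3 and 1.06 for Ms4a3. The estimates for Mpo and Elane turned negative without minimal fusion replicate 2 or MIG replicate 3, and that of Elane also without minimal fusion replicate 3 or MIG replicate 2.

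CALM-AF10 against MIG gave no call among the 5 genes. Of the probe sets with a gene symbol, 0% passed the adjusted threshold and 5.26% the unadjusted one. Elane averaged 11.61 ± 1.55 in CALM-AF10 cells and 12.59 ± 0.36 in MIG cells (log2 intensity, SD, n = 3 each). This was the widest gap of the 5, at −0.98 (SE 0.88, 95% interval −2.91 to 0.95, limma adjusted p = 1). Without CALM-AF10 replicate 1 it was −0.20, and without CALM-AF10 replicate 2 −1.75. The other 4 differed by −0.07 to 0.02, with intervals from −1.98 to 1.83 for Ms4a3 and from −0.51 to 0.42 for Ctsg. Groups overlapped for all 5, against 6.04% of probe sets not overlapping with CALM-AF10 higher and 3.26% lower.

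CALM-AF10 ΔOM-LZ against MIG likewise gave none. Of the probe sets with a gene symbol, 0% passed the adjusted and 3.96% the unadjusted threshold. Elane differed by −0.59 (SE 0.88, 95% interval −2.53 to 1.34), Prtn3 by 0.16, Ms4a3 by 0.04, Mpo by −0.07 and Ctsg by −0.10, each with a limma adjusted p of 0.999. Groups overlapped for all 5, against 3.57% of probe sets not overlapping with ΔOM-LZ higher and 4.47% lower. Without ΔOM-LZ replicate 1 the estimate for Elane became 0.43 and that for Mpo 0.34.

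Comparisons between fusions ask whether the OM-LZ part, or the cut down to 2 fragments, changes these genes. CALM-AF10 against ΔOM-LZ gave estimates from −0.38 for Elane (95% interval −2.32 to 1.55) to 0.09 for Mpo (interval −0.63 to 0.81), none past either threshold (0% of probe sets past the adjusted and 2.26% past the unadjusted one). At the same replicate number, CALM-AF10 minus ΔOM-LZ was 0.51, 0.01 and −0.86 for Ms4a3 and 0.12, −0.04 and −1.23 for Elane in replicates 1, 2 and 3. So CALM-AF10 stood above its numbered partner in replicate 1 and below it in replicate 3, and the same was found for the other 3 genes. Same-numbered arrays of this pair deviated together over all probe sets (r = 0.70 to 0.73). With replicate number as a block in a fit of this pair alone, 0.00427% of probe sets passed the adjusted threshold and 14.2% the unadjusted one. None of the 5 genes passed either there (lowest limma adjusted p = 0.558, for Elane).

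The minimal fusion had positive estimates for all 5 genes against ΔOM-LZ, from 0.13 for Mpo to 0.66 for Elane (SE 0.88, 95% interval −1.27 to 2.59), with a limma adjusted p of 0.999 for each. All 5 estimates turned negative without ΔOM-LZ replicate 1, to −0.37 for Elane and −0.43 for Ms4a3. Against CALM-AF10 the minimal fusion also had positive estimates for all 5, from 0.04 for Mpo to 1.04 for Elane (SE 0.88, interval −0.89 to 2.98), with a limma adjusted p of 1 for each. Without CALM-AF10 replicate 1 the estimate was 0.27 for Elane, 0.12 for Prtn3, 0.01 for Ctsg, −0.0088 for Ms4a3 and −0.17 for Mpo. Without CALM-AF10 replicate 2 it was 1.82 for Elane. Past the adjusted threshold were 0.0171% of probe sets against ΔOM-LZ and 0.00427% against CALM-AF10, and past the unadjusted one 4.1% and 1.8%. Groups overlapped for all 5 genes in these 3 comparisons. Among all probe sets, groups did not overlap in 4.66% with CALM-AF10 higher than ΔOM-LZ and 2.09% with it lower. The shares were 3.7% and 4.09% with the minimal fusion above and below ΔOM-LZ, and 2.06% and 3.32% with it above and below CALM-AF10. A test of any difference among the 4 constructs gave unadjusted p of 0.601 for Elane and 0.981 for Mpo (limma moderated F), with adjusted p of 1 for all 5 genes. Of all probe sets 0.00854% passed that test after adjustment and 4.3% before it.

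**Figure D2:**
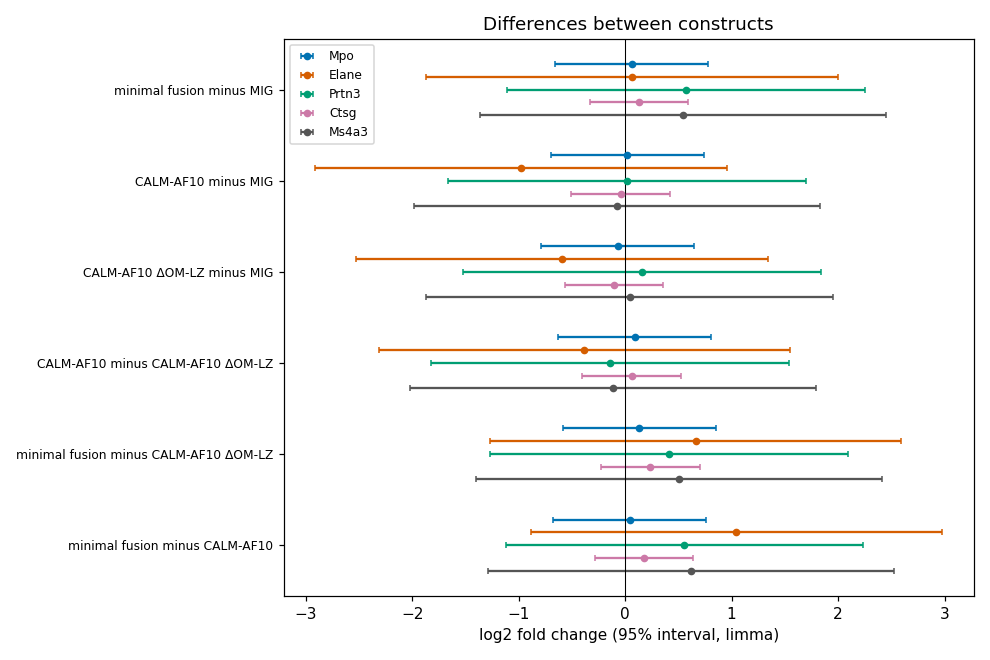
Log2 fold change (horizontal axis) of each gene in each pair of constructs, with 95% intervals from limma; the construct named first is on top of the ratio. Every interval includes 0, and those of Elane, Prtn3 and Ms4a3 are wider than those of Mpo and Ctsg.

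Arrays of 1 construct differed widely in these genes. Within constructs the SD was 1.25 for Elane, 1.23 for Ms4a3 and 1.08 for Prtn3 (pooled, log2 scale), larger than for 99.8%, 99.77% and 99.56% of genes. Mpo had 0.45 and Ctsg 0.28, larger than for 93.4% and 80.8% of genes, and the median over all genes was 0.18. The construct accounted for 15.3% of the variance between the 12 arrays for Elane, 12.4% for Ctsg, 6.39% for Prtn3, 5.6% for Ms4a3 and 1.63% for Mpo, beside a median of 22.2% over all genes.

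Replicate number divided the fusion arrays more than construct did. Over the 9 fusion arrays, replicate number held 86.1% of the variance of Ms4a3, 85.6% of Mpo, 83.5% of Prtn3, 75% of Elane and 60.3% of Ctsg, where the median gene had 37.1%. The fusion held 1.72% to 14.4% in the same 5 genes, where the median gene had 16.4%. In replicate 2 the 3 fusions almost coincided: Elane ranged over 0.04, Ms4a3 over 0.06, Mpo and Ctsg over 0.07 and Prtn3 over 0.15 log2 units. In replicate 1 Elane ranged over 1.95, Ms4a3 over 1.35, Prtn3 over 1.11, Ctsg over 0.68 and Mpo over 0.59. MIG arrays did not follow that order, since replicate 1 was the highest and replicate 3 the lowest MIG array for all 5 genes. The labels do not say what arrays with the same number have in common.

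The 5 genes varied together between arrays. Over the 12 arrays the 10 pairs of genes had Pearson r from 0.884 to 0.992, median 0.909, and Spearman rho from 0.825 to 0.993. All 10 pairs passed by both measures (two-sided permutation tests with 100000 resamples, adjusted p of at most 0.00064 for r and 0.00153 for rho over the 10 pairs). These p-values, and those within constructs below, treat arrays as exchangeable and take no account of what same-numbered arrays share. The 5 genes were also chosen with earlier results of these data known, so these p-values are not independent support. Prtn3 and Ms4a3, which lie on chromosomes 10 and 19, were the closest pair (r = 0.992, rho = 0.993, permutation p = 1e-05 for each, the smallest these permutations can give). The neighbours Elane and Prtn3 had r = 0.89 and rho = 0.958.

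The relation held within constructs. With each construct's mean removed, the 10 values of r ran from 0.901 to 0.993, and all 10 pairs passed with arrays permuted within constructs (exact permutation over 1296 arrangements, adjusted p of at most 0.00154, smallest possible unadjusted p 0.000772). With replicate-number means removed as well, r ran from 0.837 to 0.991. That step removed the same shift for a replicate number from all 4 constructs. MIG arrays ran in another order than the fusion arrays, so what same-numbered fusion arrays share was only partly removed. These r therefore cannot show whether the genes varied together beyond it. Each pair was also computed without the 2 arrays farthest from the median of its first gene. Elane and Ctsg then had r = 0.578 over 10 arrays (permutation p = 0.0729), so that relation was less certain without the 2 left out. These were CALM-AF10 replicate 1 and ΔOM-LZ replicate 1, and leaving out such far arrays also narrows the range of values. Mpo and Ctsg had r = 0.672 without the same 2 (permutation p = 0.0301). For the other 8 pairs r was then 0.768 to 0.988. ΔOM-LZ replicate 1 was the lowest array and CALM-AF10 replicate 1 the second lowest for 5 of 5 genes. The replicate 2 arrays of the 3 fusions were among the 4 highest for 5 of 5.

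**Figure D3:**
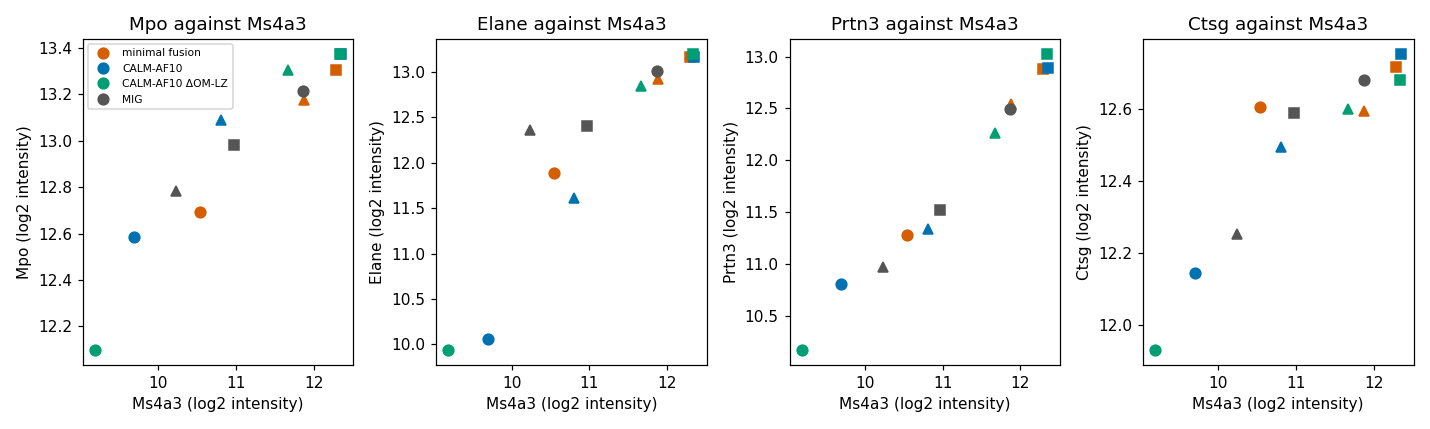
Log2 intensity of Mpo, Elane, Prtn3 and Ctsg (vertical axes) against Ms4a3 (horizontal axes) on the 12 arrays; colour marks the construct and circles, squares and triangles replicates 1, 2 and 3. Points of all 4 constructs lie along 1 band in each panel, with r from 0.918 for Ctsg to 0.992 for Prtn3.

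To find other genes of like pattern, each gene was set against the mean of the 5 genes after centring each on its 12-array mean. The 5 were not scaled to equal spread. Elane, Ms4a3 and Prtn3 (SD 1.15, 1.08 and 0.95 over 12 arrays) therefore weighed more in that mean than Mpo and Ctsg (SD 0.39 and 0.26). These r are descriptions over 12 arrays that share the same libraries, and no test was made of them. Of all genes, 3.16% had r of at least 0.8 and 1.69% had −0.8 or less. Outside the 5, the genes most alike were Cxcr4, the chemokine receptor that holds cells in marrow (r = 0.971), and Clec12a, an inhibitory lectin receptor of myeloid cells (r = 0.970). Clec12a had log2 values of 9.51, 10.88 and 10.60 in minimal fusion cells, 8.32, 11.28 and 10.14 in CALM-AF10 cells, 8.28, 11.32 and 10.96 in ΔOM-LZ cells, and 10.78, 10.54 and 9.46 in MIG cells. Its 2 lowest arrays were those of Ms4a3, replicate 1 of ΔOM-LZ and of CALM-AF10. The next 8 were Prss16, 1700020L24Rik, Mgst2, Mslnl, Drc7, Sort1, Atrn and Arsb, with r from 0.956 to 0.941. Sort1 encodes the sorting receptor sortilin and Arsb a lysosomal sulfatase. Of these, Mslnl and Drc7 were dim and varied only 1.44-fold and 1.31-fold.

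Genes that ran opposite to the 5 were led by Eya2, a transcriptional cofactor gene (r = −0.974). Its log2 values were 8.42, 7.20 and 7.47 in minimal fusion cells, 8.93, 7.14 and 8.22 in CALM-AF10 cells, 9.13, 7.34 and 7.95 in ΔOM-LZ cells, and 7.61, 8.22 and 8.47 in MIG cells. It was highest where the granule genes were lowest. Disp1, Rny3, Slfn5, Mfge8, Anxa6, Cnrip1, Pdcd1lg2, Ercc5 and Exoc4 followed, with r from −0.961 to −0.933. Among them Pdcd1lg2 encodes the immune checkpoint ligand PD-L2 and Ercc5 a nuclease of DNA excision repair.

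Other genes of azurophil granule contents and packaging did not run with the 5 as a group. Of 13 measured, 5 had positive r (beside 11584 of 19938 over all genes) and 8 negative. Their median was −0.14, beside 0.148 over all genes. Prss57, a further serine protease of azurophil granules whose gene is also on chromosome 10, had the highest r of the 13, 0.930. It had log2 values of 8.41, 9.88 and 9.09 in minimal fusion cells, 7.88, 9.68 and 7.89 in CALM-AF10 cells, 7.42, 9.69 and 8.82 in ΔOM-LZ cells, and 9.64, 8.32 and 8.09 in MIG cells. The highest and lowest of its arrays were the replicate 2 array of the minimal fusion and ΔOM-LZ replicate 1. Gusb, a lysosomal glucuronidase gene, had r = 0.614, the cystatin gene Cst7 0.524, the bactericidal protein gene Bpi 0.374 and Srgn, the proteoglycan that packs granule proteases, 0.10. Bpi was dim (mean log2 value 4.97), and Bpi and Srgn varied only 1.29-fold and 1.28-fold. Ctsc, which encodes the enzyme that activates the granule serine proteases, had −0.12, and the lysozyme genes Lyz1 and Lyz2 −0.14 and −0.35. Serpinb1a, an inhibitor of these proteases, had −0.42. The lysosomal genes Hexa, Cd63, Man2b1 and Ctsd had −0.54, −0.61, −0.64 and −0.74. In none of the 6 pairs of constructs did any of the 13 pass limma's adjusted threshold. At an unadjusted p under 0.05 there were 5 in the minimal fusion against MIG (4 lower and 1 higher, beside 7.61% of all probe sets). There were 2 in CALM-AF10 against MIG, both lower (5.26% of all), and 0 in ΔOM-LZ against MIG (3.96% of all). The minimal fusion against ΔOM-LZ had 7 (1 higher and 6 lower, beside 4.1% of all) and against CALM-AF10 1, which was lower (1.8% of all). CALM-AF10 against ΔOM-LZ had 1, which was lower (2.26% of all). Their median log2 fold change against MIG was −0.37 in the minimal fusion, −0.01 in CALM-AF10 and 0.16 in ΔOM-LZ, beside 0.01 over all genes in each.

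Among 10 regulators of the promyelocyte stage, 7 had positive r, beside 11584 of 19938 over all genes. Their median was 0.506, beside 0.148 over all genes. Gfi1, a repressor required for neutrophil development, had r = 0.933. Its log2 values were 9.60, 9.93 and 10.01 in minimal fusion cells, 8.90, 10.18 and 9.50 in CALM-AF10 cells, 8.50, 10.36 and 9.71 in ΔOM-LZ cells, and 9.55, 9.32 and 9.20 in MIG cells. Cebpe, a C/EBP factor of granule maturation, had r = 0.878, and its arrays spanned 4.13-fold. Irf8, Spi1 (PU.1), Myb, Cbfb and the G-CSF receptor gene Csf3r had 0.640, 0.638, 0.589, 0.423 and 0.375. Cebpa, which starts the granulocyte programme, had −0.28, while Runx1 and the retinoic acid receptor gene Rara had −0.71 and −0.77. All 10 kept their sign without any 1 array, as did 10 of the 13 azurophil genes, but sizes moved. Myb then ranged from 0.19 to 0.72, Csf3r from 0.12 to 0.51 and Runx1 from −0.80 to −0.47. Among the azurophil genes Man2b1 ranged from −0.71 to −0.22 and Hexa from −0.63 to −0.24. In none of the 6 pairs of constructs did any of the 10 pass limma's adjusted threshold. At an unadjusted p under 0.05 there were 0 in the minimal fusion (beside 7.61% of all probe sets), 1 in CALM-AF10, which was higher (5.26% of all), and 0 in ΔOM-LZ (3.96% of all) against MIG. Between fusions, CALM-AF10 against ΔOM-LZ had 1, which was higher (2.26% of all). The minimal fusion against ΔOM-LZ had 5 (2 higher and 3 lower, beside 4.1% of all) and against CALM-AF10 2 (1 higher and 1 lower, beside 1.8% of all).

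Cell cycle genes ran with the 5, and mast cell and megakaryocyte genes ran opposite to them. All 11 measured cell cycle genes had positive r (0.375 to 0.898), beside 11584 of 19938 over all genes. Cdk1, the mitotic kinase gene, led at 0.898 and Aurkb followed at 0.889. Of the 11, 4 reached 0.8, beside 3.16% of all genes. Of 12 mast cell and basophil genes 11 had negative r (8354 of 19938 over all genes). The mast cell tryptase gene Tpsb2 was lowest at −0.829. The mean level of the 12 ranged from 7.82 to 8.25 in minimal fusion cells, 8.34 to 9.92 in CALM-AF10 cells, 8.70 to 10.18 in ΔOM-LZ cells and 8.52 to 10.90 in MIG cells (log2). All 7 measured megakaryocyte genes had negative r (8354 of 19938 over all genes), down to −0.745 for the integrin gene Itga2b. Their mean level ranged from 7.86 to 8.40 in minimal fusion cells, 8.10 to 8.81 in CALM-AF10 cells, 8.27 to 9.73 in ΔOM-LZ cells and 8.56 to 9.88 in MIG cells. The part of these cells in the swings of the granule genes was not tested. Genes of later neutrophil granules were split, with 8 of 15 positive, beside 11584 of 19938 over all genes. S100a8 had 0.794 and Camp 0.698, while Retnlg had −0.63 and the gelatinase gene Mmp9 −0.59 (−0.71 to −0.22 without 1 array). Retnlg and Mmp9 were dim (mean log2 values 5.44 and 5.57) and varied only 1.49-fold and 1.88-fold.

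Monocyte and macrophage genes had a median r of −0.15, from −0.656 for Adgre1 to 0.548 for Cx3cr1. Of the 10, 8 were negative (8354 of 19938 over all genes), and 5 kept their sign without any 1 array. Of the 8 stem and progenitor genes measured, 6 were negative (8354 of 19938 over all genes), with Slamf1 at −0.645 and Kit at −0.626. Procr (0.355) and Cd27 (0.118) were positive, and 6 of the 8 kept their sign without any 1 array. Eosinophil, erythroid and B cell lists had medians of 0.209, 0.01 and 0.105, near the median of all genes. Single genes lay farther out, among them Siglecf of the eosinophil list (0.819), Igll1 of the B cell list (0.817) and Gata1 of the erythroid list (−0.791). The sign held without any 1 array for 7 of 8 eosinophil, 6 of 7 erythroid and 4 of 8 B cell genes. Fibroblast genes, which could come from producer cells, had 7 of 8 positive, beside 11584 of 19938 over all genes. Fn1 ran opposite (r = −0.673), and the list's mean had r = −0.07 with that of the 5. Their mean level lay between 6.90 and 7.47 on all arrays.

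**Figure D4:**
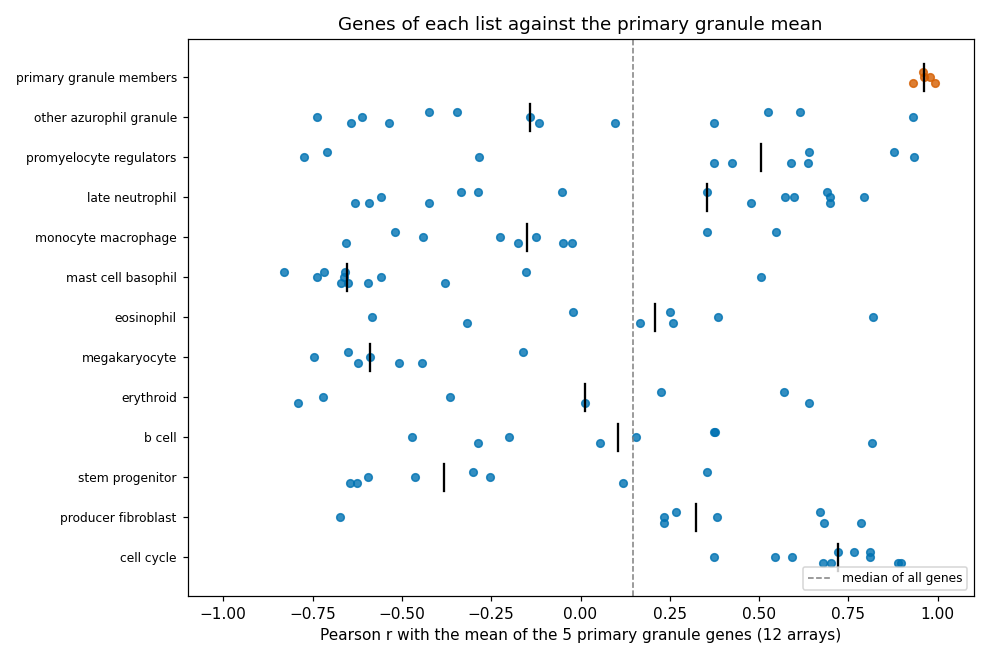
Pearson r over the 12 arrays (horizontal axis) between each gene and the centred mean of the 5 primary granule genes; each row is a list, each point a gene, black bars are list medians and the dashed line the median of all genes. Cell cycle genes lie to the right (median 0.722) and mast cell and basophil genes to the left (median −0.654).

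**Figure D5:**
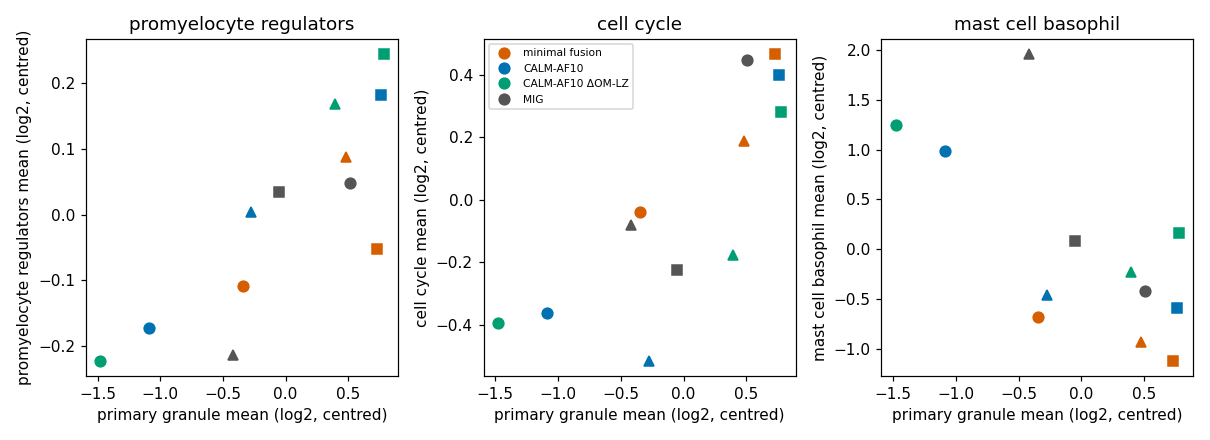
Centred mean of promyelocyte regulators, cell cycle genes and mast cell and basophil genes (vertical axes, log2) against that of the 5 primary granule genes (horizontal axes, log2) on the 12 arrays; colour marks the construct and circles, squares and triangles replicates 1, 2 and 3. The first pair rise with the granule genes (r = 0.827 and 0.803) and the mast cell and basophil mean falls (r = −0.683), with MIG replicate 3 the highest mast cell array.

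Neighbouring genes on the chromosome followed in part. Plppr3, next to Prtn3 on chromosome 10, had r = 0.945 with it and 0.725 with Elane. Ptbp1, the gene beyond, had 0.845 with Prtn3 but varied little (SD 0.186 on the log2 scale). Plppr3 had log2 values of 9.54, 10.24 and 10.31 in minimal fusion cells, 9.48, 10.68 and 9.47 in CALM-AF10 cells, 8.75, 10.59 and 9.84 in ΔOM-LZ cells, and 10.08, 9.35 and 8.89 in MIG cells, and so shared the low array of ΔOM-LZ replicate 1. On the other side, Med16 had 0.494 with Elane and 0.784 with Prtn3, and R3hdm4, the gene beyond, had 0.259 with Elane. Beside Mpo on chromosome 11, Tspoap1 had 0.754 and the lactoperoxidase gene Lpo 0.742, although Lpo was dim (mean log2 value 5.90). The next genes out were Mir142, which ran opposite (r = −0.557), and Mks1 (r = 0.538). Beside Ctsg on chromosome 14, the mast cell and basophil protease genes Mcpt8 and Mcpt4 ran opposite to it (r = −0.679 and −0.738). The granzyme genes Gzme and Gzmd had 0.292 and −0.173. Both were dim (mean log2 values 4.54 and 4.09) and varied little (SD 0.136 and 0.068). Beside Ms4a3 on chromosome 19, Ms4a2, a chain of the high-affinity IgE receptor of mast cells, had −0.70, and Ms4a6d, the gene beyond, −0.184. On its other side Oosp2 and Oosp1 had 0.33 and 0.543, and both were dim (mean log2 values 4.80 and 5.66). These r are over 12 arrays and were not tested.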

How the data were processed

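Gene expression was measured on Affymetrix arrays after whole-transcript sense labelling, 1 array per sample and 12 in all, per the labels. Log2 intensities, 1 for each probe set on each array, were deposited; the submitters' processing notes name Affymetrix Expression Console, and no source used here gives its version, summarization or normalization. The values lay between 2.88 and 14.27, the basis for taking them as log2, and were not renormalized. Of 35556 probe sets, 23410 had a gene symbol in the platform annotation and were tested, and the brightest probe set with 1 symbol stood for each of 19938 genes; each of the 5 genes had only 1.

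Constructs were compared with limma 3.58.1 in R 4.3.3 (lmFit, eBayes), 1 mean per construct over 12 arrays, 8 residual degrees of freedom, two-sided p adjusted by Benjamini-Hochberg over 23410 probe sets, threshold 0.05. The fit was tested on simulated data. Correlations used numpy 2.4.6 and scipy 1.17.1. Same-numbered arrays deviated together in all 3 pairs for CALM-AF10 and ΔOM-LZ alone (r = 0.70 to 0.73), a pairing seen in the data and not in the labels, so paired fits are given as alternatives. Precision is limited by 3 arrays per group. The 5 genes and the lists were chosen with earlier results of these data known. Named besides the 5 were the 10 genes with the highest and the 10 with the lowest r with their mean, all genes of the azurophil and regulator lists, up to 4 from each other list by r, and up to 2 neighbours on each side. Scalings, variance models, probe filters, replicate blocks and leaving out each array were tried as alternatives.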

Additional observations from a re-analysis of the deposited data

How the results depend on the processing

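None of the 5 genes passed the threshold in any of the 6 pairs of constructs, by limma with all arrays or under any of the 21 alternatives, or in the F test, which ran under 19 of them (quantile normalization, median centring, trend and robust variance, only the groups compared without or with a replicate block (neither has an F test), replicate block on all arrays, brighter probe sets only, all probe sets of the file, the mean of a gene's probe sets, and without each of the 12 arrays). The lowest adjusted p of a member was 0.558, for Elane in the replicate block fit of CALM-AF10 and ΔOM-LZ, where its difference was −0.38. With the replicate block on the groups compared, an unadjusted p under 0.05 was reached in 3 of 30 values. All 3 were in the minimal fusion against CALM-AF10, by Elane, Ms4a3 and Prtn3. So 3 of the 5 genes reached it in that fit, beside 4.3% of all probe sets, and their limma adjusted p was 1 there. No other alternative gave an unadjusted p under 0.05 (3 of 725 values in all). That block for this pair rests on a number whose arrays did not all deviate together.

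Signs were not stable, and 52 of 630 recomputed differences changed sign. In CALM-AF10 against MIG, Mpo became −0.013 and Prtn3 −0.0044 with quantile normalization, and Prtn3 −0.00051 with median centring. Without 1 array, differences in the minimal fusion against MIG ranged from −0.060 to 0.25 for Mpo and −0.19 to 0.45 for Elane. In CALM-AF10 against MIG they ranged from −0.16 to 0.24 for Mpo, −1.75 to −0.20 for Elane, −0.59 to 0.45 for Prtn3, −0.19 to 0.12 for Ctsg and −0.77 to 0.55 for Ms4a3. In ΔOM-LZ against MIG they ranged from −0.29 to 0.34 for Mpo, −1.20 to 0.43 for Elane, −0.45 to 0.98 for Prtn3, −0.24 to 0.13 for Ctsg and −0.59 to 0.98 for Ms4a3. In CALM-AF10 against ΔOM-LZ they ranged from −0.32 to 0.31 for Mpo, −1.41 to 0.39 for Elane, −0.97 to 0.46 for Prtn3, −0.18 to 0.22 for Ctsg and −1.05 to 0.52 for Ms4a3. In the minimal fusion against ΔOM-LZ they ranged from −0.28 to 0.36 for Mpo, −0.37 to 1.26 for Elane, −0.41 to 1.02 for Prtn3, −0.00061 to 0.38 for Ctsg and −0.43 to 1.14 for Ms4a3. In the minimal fusion against CALM-AF10 they ranged from −0.17 to 0.23 for Mpo, 0.27 to 1.82 for Elane, 0.12 to 1.16 for Prtn3 and −0.0088 to 1.32 for Ms4a3. The cause was not tested beyond the arrays left out.

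All 10 pairs of genes passed under both other scalings, by Spearman, within constructs and without any 1 array, and 9 of 10 passed without the 2 arrays farthest from the median, Elane with Ctsg being the exception. The median pairwise r was 0.909, 0.946 within constructs, 0.936 with the replicate block and 0.857 without the 2 arrays farthest from the median; without 1 array it ran from 0.86 to 0.938, lowest without ΔOM-LZ replicate 1. Signal over background was not analysed here, and 3 arrays per construct limit every difference.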
